A study of Mus musculus with 24 samples.

Results

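The let-7 family was followed through small RNA sequencing of exosome-enriched fractions (EEFs) from mouse hippocampus. Its members were taken by name from the deposited count tables. They were let-7a-5p, let-7b-5p, let-7c-5p, let-7d-5p, let-7e-5p, let-7f-5p, let-7g-5p, let-7i-5p, let-7c-2-3p and miR-98-5p, which made 10 of the 1073 mature miRNA names with a read. All 10 members were read in 24 of 24 libraries.

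The let-7 miRNAs are ancient and highly conserved repressors of cell growth and of embryonic gene programmes. They accumulate as cells differentiate and are abundant in adult neurons. Their maturation is blocked in stem cells by the RNA-binding protein Lin28, which recruits terminal uridylyl transferases to the precursor hairpin. A miRNA selects its targets mainly through its seed, bases 2 to 8 from the 5′ end, and miRNAs that share a seed can repress overlapping sets of mRNAs. The mature sequences are shown because the 9 members that share a seed differ from each other by only a few bases, all outside it. They were taken from RefSeq (GRCm38.p6) and are written 5′ to 3′ with the seed in capitals.
mmu-let-7a-5p: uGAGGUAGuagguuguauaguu
mmu-let-7b-5p: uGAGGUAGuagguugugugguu
mmu-let-7c-5p: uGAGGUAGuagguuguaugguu
mmu-let-7d-5p: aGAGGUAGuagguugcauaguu
mmu-let-7e-5p: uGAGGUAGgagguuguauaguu
mmu-let-7f-5p: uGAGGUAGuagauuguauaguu
mmu-let-7g-5p: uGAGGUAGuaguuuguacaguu
mmu-let-7i-5p: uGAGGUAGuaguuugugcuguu
mmu-mir-98-5p: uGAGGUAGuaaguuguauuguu
mmu-let-7c-2-3p: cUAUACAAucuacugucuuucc

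Of the 10 members, 9 shared the seed GAGGUAG, and all were 22 bases long. The remaining member, let-7c-2-3p, came from the opposite arm of a let-7c hairpin and had the seed UAUACAA. Its sequence is identical to that of let-7a-1-3p, which has no row of its own in the count tables, so the hairpin behind these reads is uncertain. Counting bases from 1 at the 5′ end, let-7a turned into let-7c by A19G, into let-7e by U9G and into let-7f by G12A, and let-7c turned into let-7b by A17G. A read of 1 member with the base of another at such a position has the sequence of that other member, so the tables, which list 0 such reads, do not show how often members were taken for each other. Base changes that are not part of a 3′ end pattern made up at most 1.40% of the reads of any member.

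The members lie in several loci of the mouse genome (GRCm38.p6, positions of the mature miRNA). let-7a-1 (chr13:48538239-48538260, minus strand), let-7f-1 (chr13:48537889-48537910, minus) and let-7d (chr13:48536078-48536099, minus) lie in exons of the lincRNA 6720427I07Rik. let-7c-2 (chr15:85706616-85706637, plus), its 3p arm (chr15:85706664-85706685) and let-7b (chr15:85707325-85707346, plus) lie in exons of the non-coding transcript Lncppara. The other copy of let-7a, let-7a-2 (chr9:41536732-41536753, plus), is in introns of the non-coding transcripts 3110039I08Rik and Gm49317. The other copy of let-7c, let-7c-1 (chr16:77599672-77599693, plus), is in an intron of Mir99ahg, the host of miR-99a. let-7e (chr17:17830366-17830387, plus) is in an intron of Spaca6 and neighbours miR-99b and miR-125a. let-7f-2 (chrX:151912353-151912374, plus) and miR-98 (chrX:151913229-151913250, plus) are in introns of Huwe1. let-7g (chr9:106178846-106178867, plus) is in an intron of Wdr82, and let-7i (chr10:122985698-122985719, minus) overlaps an exon of the transcribed pseudogene D630033A02Rik. Reads of let-7a-5p, let-7c-5p and let-7f-5p cannot be assigned to either of their hairpins.

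EEFs came from male C57BL/6 mice (the substrain C57BL/6OlaHsd in the study's methods) aged 6 to 9 weeks with a cannula at the basolateral amygdala. KA mice received 0.3 μg kainic acid in 0.2 μl, which evoked status epilepticus, and control mice received 0.2 μl PBS. Seizures were ended with midazolam, and mice were perfused with PBS and killed at 24 h or 2 weeks. EEFs were isolated by ultracentrifugation (UC) or by a precipitation kit from hippocampi pooled over animals, treated with RNase A and sequenced. Each of the 8 groups had 3 libraries. The labels number these libraries as replicates and the study describes them as separate pools, so the spread is between pools and not between mice. The total count was 85436 to 169639 in UC libraries (median 132335) and 154884 to 676726 in kit libraries (median 277043). A single read therefore stood for 5.89 to 11.7 CPM (reads per 1e+06 reads of the library) with UC and 1.48 to 6.46 CPM with the kit. CPM are shares of a library, so that less of a miRNA and more of the others, or fewer vesicles of a kind and less RNA in each, cannot be told apart. Replicate libraries differed by more than sampling noise in all 24 pairs (chi-square per degree of freedom 5.89 to 183.0). Marker miRNAs of hippocampal cells were present, with a summed level of 5 neuronal miRNAs of 29870 to 43030 CPM with UC and 47260 to 78960 CPM with the kit, whereas 4 blood miRNAs summed to 0 to 15.5 and 6.46 to 184 CPM.

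The family took up a larger share of the kit libraries than of the UC libraries. The 10 members together made up 3.41% to 9.09% of the reads in UC libraries, with a median of 5.58%, and 7.65% to 17.4% in kit libraries, with a median of 12.8%. The means were 5.79% ± 1.69 (SD, n = 12) and 12.9% ± 2.46 (n = 12), a ratio of 2.23. In 11 of 12 kit libraries the family exceeded every UC library. The exception was replicate 2 of the kit KA group at 2 weeks, with 76504 CPM beside 174050 and 107750 CPM in the other libraries of its group.

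With UC, let-7i-5p and let-7c-5p were the most abundant members and could not be ordered. let-7i-5p had 11292 to 20207 CPM (median 15975, mean 15918 ± 2620) and let-7c-5p had 9370 to 23011 CPM (median 15355, mean 15615 ± 4213), and let-7i-5p was the higher of the pair in 7 of 12 libraries. They ranked 11 and 12 among all miRNAs. let-7f-5p followed at rank 14, with 4645 to 25910 CPM (median 12015, mean 12236 ± 6178), and was below let-7c-5p in 11 of 12 libraries.

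A middle tier held let-7b-5p with 3254 to 6218 CPM (median 4585), let-7e-5p with 1609 to 6452 CPM (median 3076) and let-7a-5p with 1377 to 6096 CPM (median 2773). let-7b-5p exceeded let-7e-5p in 10 of 12 libraries and let-7e-5p exceeded let-7a-5p in 9 of 12. The low tier consisted of let-7g-5p with a median of 1087 CPM (796 to 1879), let-7c-2-3p with 935 CPM (459 to 1264), let-7d-5p with 555 CPM (430 to 987) and miR-98-5p with 425 CPM (230 to 760). The step from let-7d-5p to miR-98-5p held in 12 of 12 libraries, and that from let-7c-2-3p to let-7d-5p in 10 of 12.

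With the kit, let-7f-5p led in every library and ranked 4 among all miRNAs. It had 25646 to 83420 CPM (median 50620, mean 55756 ± 16235), above let-7c-5p in 12 of 12 libraries. let-7c-5p had 14943 to 31575 CPM (median 27007, mean 26335 ± 4605) and let-7i-5p 15708 to 22355 CPM (median 19675, mean 19793 ± 1681), in this order in 11 of 12 libraries.

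let-7a-5p had a median of 8277 CPM (4808 to 11732) with the kit and let-7e-5p one of 7028 CPM (3539 to 11396), and let-7a-5p was the higher in 10 of 12 libraries. let-7g-5p with 3930 CPM (2493 to 5032) and let-7b-5p with 3701 CPM (2970 to 4255) were close, and let-7g-5p led in 8 of 12. let-7d-5p had 2209 CPM (1501 to 3067), miR-98-5p 1452 CPM (718 to 2242) and let-7c-2-3p 370 CPM (194 to 770). The last of these ranked 75 among all miRNAs with UC and 111 with the kit, while let-7d-5p ranked 84 and 44.

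**Figure D1:**
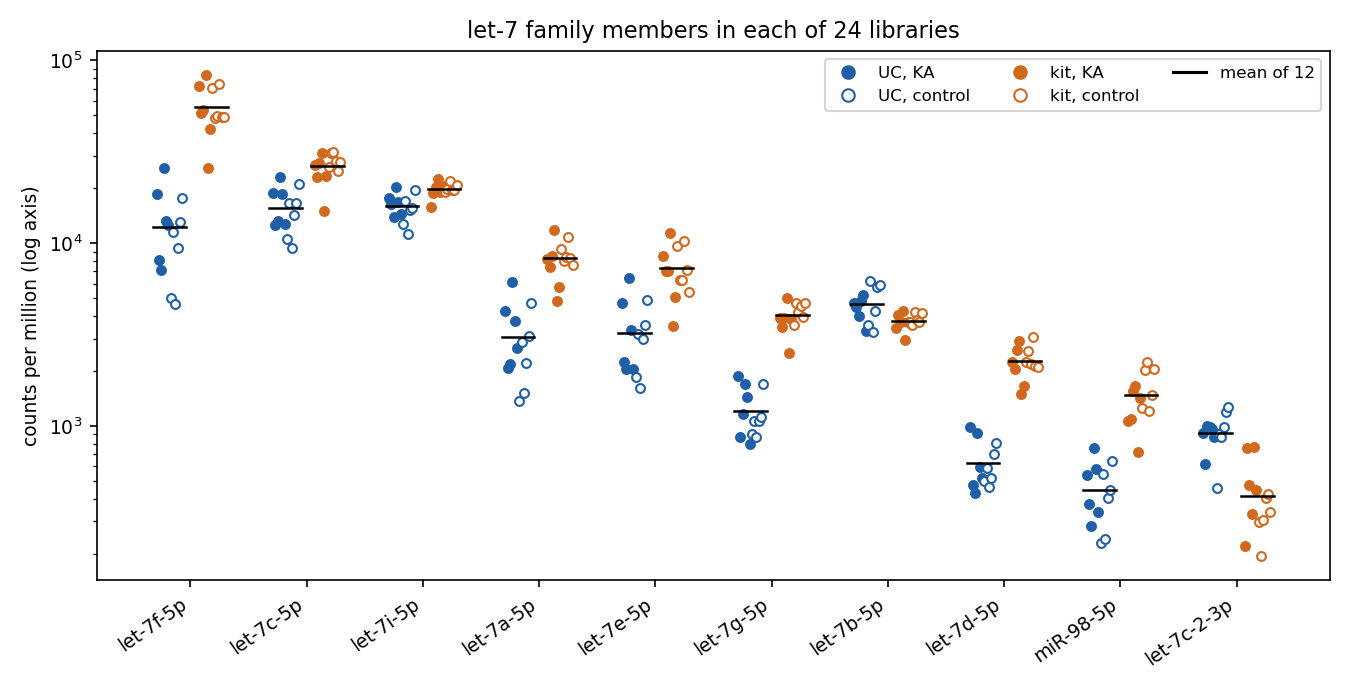
Level of each of the 10 members in each of the 24 libraries, in CPM on a log axis, by method. let-7f-5p lies between 4645 and 25910 CPM in UC libraries and between 25646 and 83420 CPM in kit libraries, while let-7b-5p lies at 3254 to 6218 and 2970 to 4255 CPM.

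The make-up of the family differed as well. let-7f-5p was 20.0% ± 4.77 of the family's reads with UC (13.5% to 28.5%, n = 12) and 42.3% ± 5.27 with the kit (33.5% to 50.7%, n = 12). let-7i-5p was 28.5% ± 3.98 with UC and 15.9% ± 3.64 with the kit, and let-7b-5p was 8.26% ± 1.53 and 2.99% ± 0.478. let-7c-5p held 27.1% ± 1.29 and 20.5% ± 2.38. The shares of let-7e-5p were alike, at 5.40% ± 0.891 and 5.54% ± 0.822. These shares sum to a fixed total, so that the rise of 1 member lowers the others.

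Ratios within a library do not depend on how libraries are scaled. The ratio of let-7f-5p to let-7i-5p was 0.394 to 1.28 with UC (median 0.734, above 1 in 2 of 12 libraries) and 1.34 to 4.58 with the kit (median 2.57, above 1 in 12 of 12), and the methods did not overlap. The ratio of let-7f-5p to let-7b-5p had a median of 2.24 with UC (1.40 to 5.37) and 13.4 with the kit (8.63 to 20.9), again without overlap. Of the members, let-7f-5p had the highest ratio of mean CPM, kit to UC (4.56). let-7b-5p (0.817) and let-7i-5p (1.24) had the lowest among those with the let-7 seed. How many pairs of other miRNAs do not overlap was not counted, so this describes the pairs shown only. Kit libraries all had more let-7a-5p than let-7b-5p (12 of 12), as did 1 of 12 UC libraries.

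Kit and UC were then compared over all 24 libraries with edgeR's quasi-likelihood test, with treatment and time as a covariate, on the 397 miRNAs that passed the filter in both methods. All 10 members passed an adjusted p-value of 0.05, 8 of them higher and 2 lower with the kit. Most miRNAs differed between the methods, with 66.2% of the 397 called, 33.2% higher and 33% lower. The median log2 fold change was 1.32 over the 10 members and -0.02 over all miRNAs tested. Without replicate 2 of the kit KA group at 2 weeks, 10 of 10 were called as well. Each method had its own libraries, so that method and library set cannot be told apart.

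The largest increase was that of let-7f-5p, with a log2 fold change of 2.23 (SE 0.21, edgeR adjusted p = 2.13e-11) and a mean level 4.56 times that with UC. let-7d-5p rose by 1.83 on the log2 scale (SE 0.16, edgeR adjusted p = 3.35e-12) and let-7g-5p by 1.71 (SE 0.14, edgeR adjusted p = 1.93e-12). These last were the only members whose CPM did not overlap between methods, a property of 43 of the 397 miRNAs (10.8%). let-7d-5p had 430 to 987 CPM with UC and 1501 to 3067 CPM with the kit, and let-7g-5p had 796 to 1879 and 2493 to 5032 CPM. miR-98-5p was higher by 1.68 (SE 0.19), let-7a-5p by 1.45 (SE 0.18) and let-7e-5p by 1.19 (SE 0.19), with adjusted p-values between 1.06e-09 and 1.82e-06.

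The smaller changes were less stable. let-7c-5p was higher with the kit by 0.73 on the log2 scale (SE 0.13, edgeR adjusted p = 1.27e-05), but lost its call in the KA libraries alone (0.46, edgeR adjusted p = 0.0697) and when miR-92b-3p and miR-25-3p, which the study used as references, set the scale (0.30, edgeR adjusted p = 0.204). let-7i-5p was higher by 0.28 (SE 0.11, edgeR adjusted p = 0.0198) and was at -0.17 (edgeR adjusted p = 0.446) under the same scaling. That scaling moved the median of all miRNAs from -0.02 to -0.45, and miR-92b-3p itself was higher with the kit by 0.77 (edgeR adjusted p = 0.000744). let-7b-5p had a log2 fold change of -0.33, lower with the kit (SE 0.12, edgeR adjusted p = 0.0207), and lost its call in the control libraries alone (-0.38, edgeR adjusted p = 0.0765), in the KA libraries alone (-0.39) and without replicate 2 (-0.16, adjusted p = 0.324).

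let-7c-2-3p, like let-7b-5p, went against the 8 members that were higher with the kit. It was lower with the kit at a log2 fold change of -1.20 (SE 0.20, edgeR adjusted p = 2.41e-06), with 459 to 1264 CPM by UC and 194 to 770 CPM by the kit, and 9 of 12 kit libraries were below every UC library.

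The order of the 9 members with the let-7 seed followed their adenine content. let-7b-5p and let-7i-5p have 3 adenines and had log2 fold changes of -0.33 and 0.28. let-7c-5p has 4 and stood at 0.73. let-7e-5p, let-7a-5p, miR-98-5p and let-7g-5p have 5 and lay between 1.19 and 1.71, and let-7d-5p and let-7f-5p have 6 and stood at 1.83 and 2.23. Spearman's rho between adenine count and log2 fold change was 0.949 over these 9 members, beside -0.771 for the guanine count and -0.720 for G and C together. let-7c-2-3p, which has another seed, is not in these values. It has 5 adenines and a log2 fold change of -1.20, below all members with 5 adenines and the let-7 seed. Over 349 other tested miRNAs with a RefSeq sequence, rho was 0.362 for adenines, -0.560 for guanines and -0.524 for G and C. This relation was looked at after the values were seen. The points share libraries and nearly all of their sequence, so these are descriptions without a test.

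**Figure D2:**
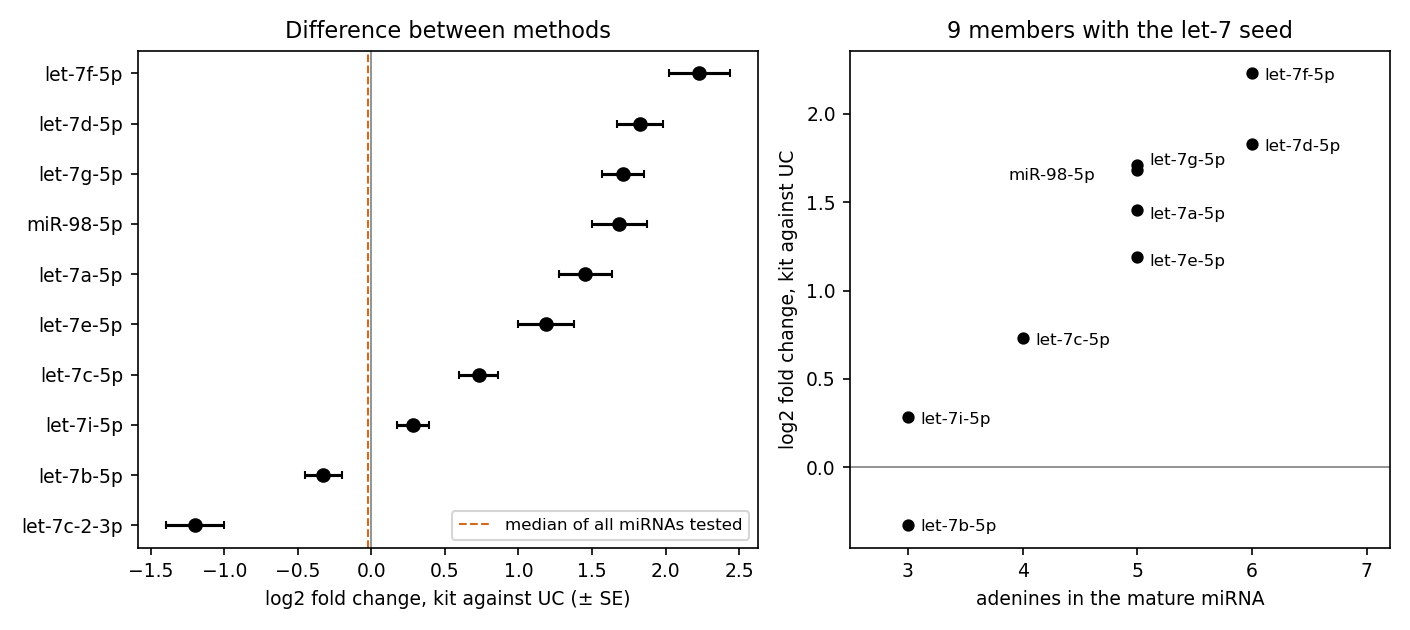
Log2 fold change between kit and UC for the 10 members with its standard error (left) and against the number of adenines in the 9 members with the let-7 seed (right). Values run from -1.20 for let-7c-2-3p to 2.23 for let-7f-5p, and let-7i-5p at 0.28 turns to -0.17 when miR-92b-3p and miR-25-3p set the scale.

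Neighbours and relatives of the family differed between methods in both directions. Of all 397 miRNAs tested, 66.2% were called, 33.2% higher with the kit and 33% lower, so that a call was common in any list. Of 5 miRNAs whose hairpins neighbour let-7 hairpins, 4 were higher with the kit by edgeR's test. They were miR-99a-5p (log2 fold change 0.93), miR-125b-5p (0.90), miR-125a-5p (0.82) and miR-99b-5p (0.54), and miR-100-5p was at 0.25 (adjusted p = 0.121). Of the other arms of the let-7 and miR-98 hairpins, 10 were read and 7 tested. let-7d-3p (1.23) and let-7b-3p (1.07) were higher with the kit, and let-7g-3p (-1.67), let-7i-3p (-1.22) and let-7f-2-3p (-0.92) were lower. let-7g thus differed in opposite directions in its 2 arms, with 1.71 for the 5p arm and -1.67 for the 3p arm. So did let-7i (0.28 for the 5p arm and -1.22 for the 3p arm) and let-7b (-0.33 and 1.07). Both arms of let-7d were higher with the kit (1.83 and 1.23). The difference between arms was not tested. Of 3 further names with the let-7 seed or a near copy of it, let-7k was lower (-0.88, edgeR adjusted p = 0.00122), let-7j was at 1.08 (adjusted p = 0.0757) and miR-1961 at 0.35.

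Summed levels of marker miRNAs of other cell types were set beside these differences, without a test. The 2 endothelial markers, miR-126a-3p and miR-126a-5p, summed to 218 to 609 CPM with UC and 2101 to 3242 CPM with the kit. The 2 oligodendrocyte markers, miR-219a-2-3p and miR-338-3p, summed to 5942 to 10690 CPM with UC and 1629 to 2154 CPM with the kit. Neither of these sums overlapped between methods. The sum of the 5 neuronal miRNAs did not overlap either, with 29870 to 43030 CPM with UC and 47260 to 78960 CPM with the kit. Among them, miR-124-3p was alike in both, with means of 5602 and 5677 CPM. The oligodendrocyte difference lay in miR-219a-2-3p, with 5058 to 9055 CPM with UC and 587 to 1059 CPM with the kit. miR-338-3p overlapped, with 884 to 1634 and 755 to 1376 CPM. The 2 choroid plexus markers summed to 295 to 2867 and 658 to 3206 CPM, and 3 microglial and leukocyte markers to 8.03 to 95 and 54.0 to 151 CPM, and both overlapped. The part of these differences, and of the deeper sequencing of kit libraries, in the change of the let-7 members was not tested.

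The effect of status epilepticus was tested within each method and time against PBS controls. No member was called in any of the 4 comparisons with edgeR's test (0 of 10 in each), where 0.476% (UC 24 h), 0.952% (UC 2 weeks), 0% (kit 24 h) and 0% (kit 2 weeks) of all tested miRNAs were called. At an unadjusted p-value under 0.05, the threshold of the study, the counts were 0, 0, 1 and 0 of 10 members, against 2.86%, 7.86%, 4.62% and 2.69% of all miRNAs. DESeq2 and limma-voom also called 0 members after adjustment. Log2 fold changes of the members ranged from -0.06 to 0.59 at 24 h and from -0.21 to 0.43 at 2 weeks with UC, and from -0.44 to 0.99 and from -0.33 to 0.43 with the kit. Standard errors were 0.23 to 0.43. Even a log2 fold change of 0.99 (SE 0.43, let-7c-2-3p with the kit at 24 h) was not called. Changes of that size could thus be missed at this depth and with 3 pools per group, and the counts of 0 do not exclude them.

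let-7f-5p had the largest difference with UC at 24 h. KA libraries had 18538, 8076 and 7167 CPM and control libraries 5008, 11510 and 4645 CPM. The groups overlapped, and replicate 1 of the KA group stood apart from its companions. The log2 fold change was 0.59 (SE 0.32, edgeR unadjusted p = 0.0690), 0.07 without that library and 1.11 without replicate 2 of the controls. At 2 weeks, KA libraries had 25910, 13271 and 12521 CPM and control libraries 9404, 13093 and 17698 CPM, a log2 fold change of 0.43, with replicate 1 of the KA group again the highest.

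With the kit, the treatments were close in let-7f-5p at 24 h. KA libraries had 72005, 51795 and 53248 CPM and control libraries 70930, 48262 and 49445 CPM (log2 fold change 0.18). At 2 weeks KA libraries had 83420, 25646 and 41980 CPM and control libraries 74117, 49130 and 49096 CPM (-0.23), and the KA group spanned the range of the controls.

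let-7c-2-3p was the member with an unadjusted p-value under 0.05. With the kit at 24 h, KA libraries had 220, 758 and 476 CPM and control libraries 296, 194 and 305 CPM, so that 2 of 3 KA libraries exceeded all controls and the third lay within them. The log2 fold change was 0.99 (SE 0.43, edgeR unadjusted p = 0.0325, adjusted p = 0.838). It ranged from 0.51 without replicate 2 of the KA group to 1.32 without replicate 1 of that group. With UC at the same time the log2 fold change was 0.08, and the difference between the methods' effects was 0.91 (SE 0.54, edgeR unadjusted p = 0.106), short of the threshold.

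Time was tested in the same fits, 2 weeks against 24 h, within control and within KA mice. Again 0 of 10 members were called in each of the 4 comparisons, beside 0% (UC control), 0.952% (UC KA), 0% (kit control) and 0.192% (kit KA) of all miRNAs. With UC, all 10 members had a positive log2 fold change in controls (0.25 to 0.88, median 0.47) and in KA mice (0.10 to 0.71, median 0.32), where 50.5% and 54.3% of all miRNAs were positive. With the kit, 9 members were positive in controls (-0.07 to 0.72) and 4 in KA mice (-0.21 to 0.21), beside 53.8% and 46.5% of all miRNAs, and 0 members passed an unadjusted 0.05 in either, beside 3.65% and 3.08%.

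let-7f-5p, let-7a-5p and let-7e-5p led the differences over time with UC. In UC controls let-7f-5p had 5008, 11510 and 4645 CPM at 24 h and 9404, 13093 and 17698 CPM at 2 weeks, and replicate 2 of the 24 h group exceeded the lowest library at 2 weeks. Its log2 fold change was 0.88 (SE 0.32, edgeR unadjusted p = 0.00838, adjusted p = 0.880). let-7a-5p and let-7e-5p were both at 0.73 (unadjusted p = 0.0245 and 0.0268 by edgeR), which made 3 of 10 members under an unadjusted 0.05, beside 4.05% of all miRNAs. That count ranged from 0 to 5 when a single library was left out, and was 0 without replicate 1 of the 24 h controls and 5 without their replicate 2. In UC KA mice, let-7f-5p was at 0.71 (unadjusted p = 0.0299, edgeR adjusted p = 0.401) and let-7a-5p at 0.64 (unadjusted p = 0.0457), beside 10.5% of all miRNAs under 0.05. Same-numbered libraries were only weakly correlated here (r = 0.112 to 0.167). With the number as a block, let-7f-5p was at 0.74 (edgeR adjusted p = 0.211). Within numbers, let-7f-5p, let-7a-5p, let-7e-5p, let-7i-5p and miR-98-5p were higher at 2 weeks in 3 of 3, the others in 1 or 2 of 3. The comparisons of treatment and of time share libraries, and the members share much of their variation within groups.

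**Figure D3:**
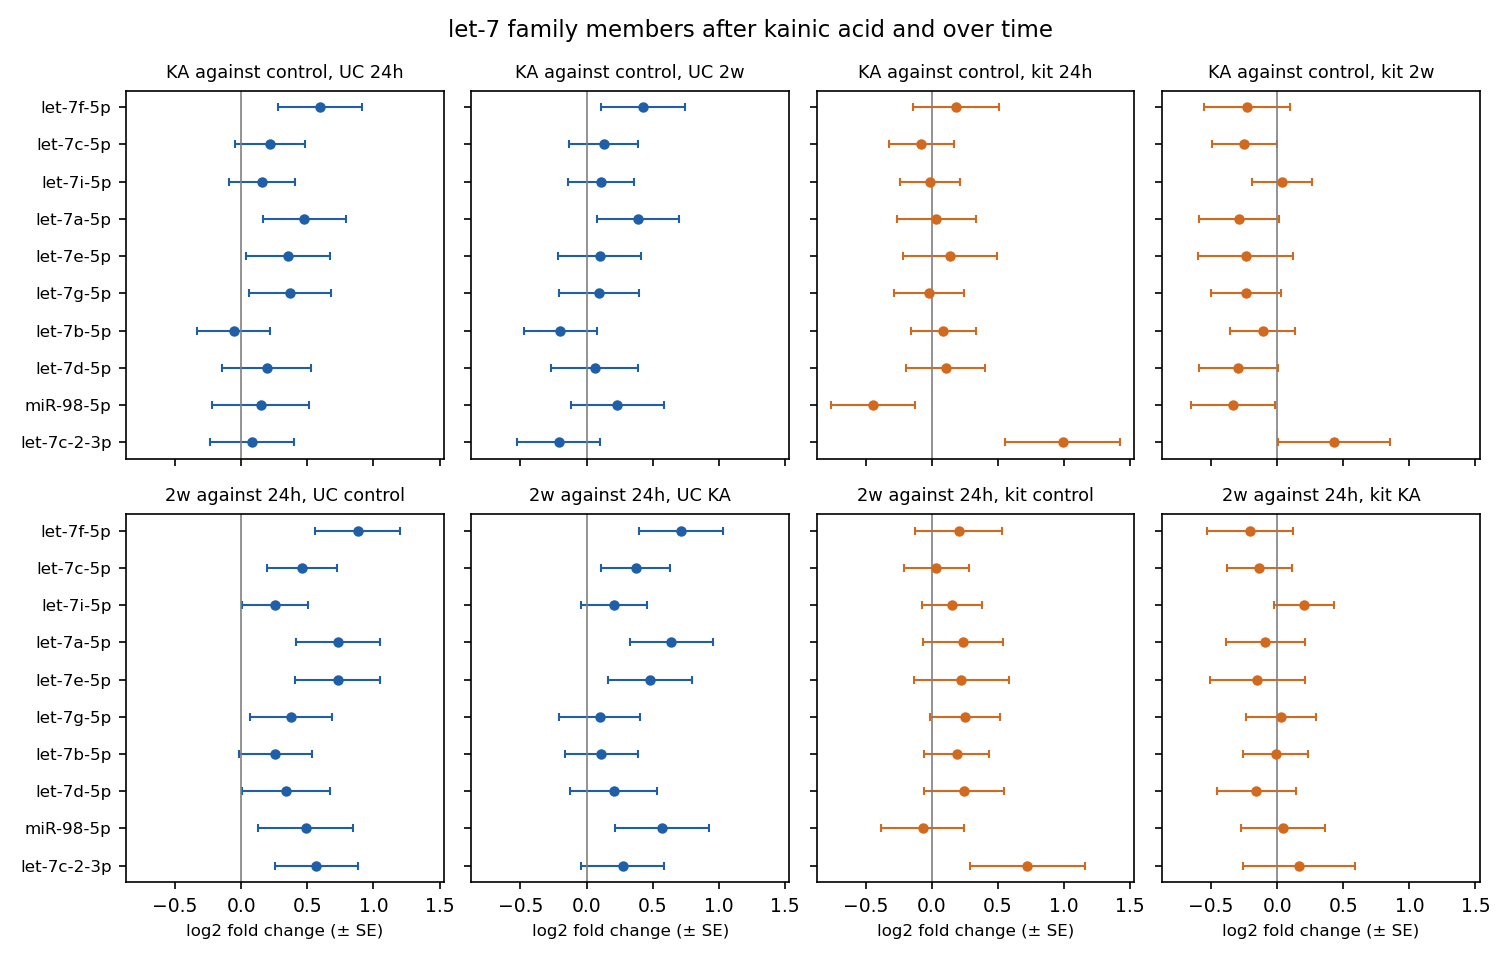
Log2 fold change with its standard error for each of the 10 members in the 4 comparisons of KA with control and the 4 of 2 weeks with 24 h. No member passed an adjusted p-value of 0.05, and the UC panels over time hold only positive values, from 0.10 to 0.88.

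Interaction terms tested whether the effect of KA depended on the time or on the method. With edgeR, 0 of 10 members were called in each of the 4 tests, beside 0.476% of all miRNAs for time with UC and 0% in the other 3. At an unadjusted p-value under 0.05 there were also 0 members in each, where 6.9%, 3.27%, 2.27% and 3.53% of all miRNAs passed. Over the 12 comparisons of treatment, time and their interactions, 0 of 152 fits, alternatives included, called a member.

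The modification tables list the bases at the 3′ end of reads that differ from the hairpin. A base added after the mature end is listed only where it differs from the next base of the hairpin. This next base is U after let-7a-5p, let-7b-5p, let-7c-5p, let-7d-5p, let-7g-5p and the let-7f-2 copy, so a first added U cannot be seen there. It is G after let-7e-5p, let-7i-5p, miR-98-5p and the let-7f-1 copy. In all, 11.7% of the members' reads with UC and 9.54% with the kit carried a single such base, beside 5.82% and 5.46% for all other miRNAs.

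Members differed widely in the share of reads with any 3′ addition. The highest among the 5p members was let-7b-5p, with a mean of 36.3% ± 3.73 with UC (30.9% to 44.7%) and 34.5% ± 5.47 with the kit (27.1% to 44.3%, n = 12 each). let-7i-5p had 20.3% ± 2.27 and 22.3% ± 3.90, and let-7e-5p 20.4% ± 2.95 and 24.1% ± 1.94. The lowest were let-7a-5p with 6.93% ± 2.11 and 9.73% ± 0.859, and let-7f-5p with 8.42% ± 0.943 and 7.75% ± 0.879.

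A single A at the first position after the mature end was the commonest addition to most 5p members. It was on 11.5% of let-7i-5p reads with UC and 13.0% with the kit, on 7.87% and 7.68% of miR-98-5p reads, on 4.91% and 6.94% of let-7a-5p reads and on 4.94% and 5.55% of let-7f-5p reads. let-7e-5p carried a U there instead, on 8.60% and 8.76% of reads, and let-7i-5p carried a U on 5.30% and 4.76% beside its A. let-7b-5p showed an A at position -2, inside the mature sequence, on 7.81% and 3.02% of reads, and let-7d-5p a run of 8 bases, ggaggaac, from position -6 on 3.57% and 1.62%. Position 0 is the last base of the mature miRNA.

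The share with any addition was compared between kit and UC for the 7 members with at least 50 reads in every library, by an exact permutation test within treatment and time (two-sided, smallest p 1.25e-05). 3 of these 7 members were called after adjustment over 74 miRNAs, all higher with the kit, where 41.9% of the 74 were called. let-7g-5p spanned 6.06% to 12.7% in UC libraries and 10.8% to 34.5% in kit libraries, a difference in means of 9.70 percentage points (exact permutation test, adjusted p = 0.000463). Runs of 5 or more bases differed by 7.92 points, and the commonest with the kit began at position -4, inside the mature sequence. Additions of 1 to 3 bases to let-7g-5p differed by 1.98 points (exact permutation test, adjusted p = 0.0385). let-7e-5p differed by 3.73 points (exact permutation test, adjusted p = 0.00430), and was at 3.06 points without replicate 2 (adjusted p = 0.0719). let-7a-5p differed by 2.80 points (exact permutation test, adjusted p = 0.00132). let-7c-5p, let-7i-5p, let-7b-5p and let-7f-5p did not pass, with adjusted p-values of 0.108 to 0.414 by the exact permutation test. The other 3 members, let-7d-5p, let-7c-2-3p and miR-98-5p, had too few reads in some UC libraries to be tested.

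Patterns of A alone and of U alone were tested separately. With A only, 6 of 7 members were called, beside 37.8% of all miRNAs tested, and 5 were higher with the kit. Means with UC and with the kit were 5.98% and 8.81% for let-7a-5p, 6.15% and 8.48% for let-7e-5p, 6.09% and 7.64% for let-7c-5p, 5.11% and 7.31% for let-7g-5p, and 5.25% and 6.19% for let-7f-5p. let-7b-5p had 14.3% and 12.2% (exact permutation test, adjusted p = 0.0493), and let-7i-5p was at 12.1% and 14.4% (adjusted p = 0.0568). Most of the A of let-7b-5p lay inside the mature sequence, on 10.4% ± 2.90 of reads with UC and 7.27% ± 1.54 with the kit. A placed after its mature end was on 3.92% ± 0.995 and 4.92% ± 1.53, a difference of 1.00 point in the other direction (adjusted p = 0.219). With A after the mature end alone, a setting chosen after the values were seen, 5 of the 7 members were called, all higher with the kit, beside 23% of all miRNAs. U only could be seen in few members, since a first U added after the mature end of let-7a-5p, let-7c-5p, let-7g-5p and of 1 copy of let-7f-5p matches the hairpin. Their shares were near 0. Whether the hidden first U accounts for this was not tested, and their lack of a call says nothing about a first added U. let-7b-5p was called, with 8.19% by UC and 3.29% by the kit (exact permutation test, adjusted p = 0.000308), beside 20.3% of all miRNAs. Its next hairpin base is also U, so its listed U lay elsewhere, most often at position 2 with UC. let-7e-5p was at 10.7% and 11.5% and let-7i-5p at 5.62% and 5.28% for U.

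Runs of 5 or more bases that do not match the hairpin made up part of the differences in any addition, and most of that of let-7g-5p. UC libraries had them on 2.28% ± 1.55 of let-7g-5p reads and kit libraries on 10.2% ± 7.11, and the shares were 3.12% ± 1.12 and 8.31% ± 4.98 for let-7b-5p. let-7f-5p had 2.64% ± 1.04 and 1.18% ± 0.733, and let-7d-5p, not tested, 19.8% ± 8.87 and 12.0% ± 6.38. Of the 7 members, 3 were called for such runs, 2 of them higher with the kit, beside 27% of all miRNAs. Between KA and control, 0 members were called for any of these shares by the exact permutation test within a method, with 0% of all miRNAs called. The smallest p of this design was 0.005, so that 8 miRNAs with UC and 12 with the kit would have had to reach it together for a call, and the count of 0 says little. The 1 member under an unadjusted 0.05 for any addition was miR-98-5p with the kit (exact permutation p = 0.015, adjusted p = 0.759), beside 3.6% of all miRNAs.

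**Figure D4:**
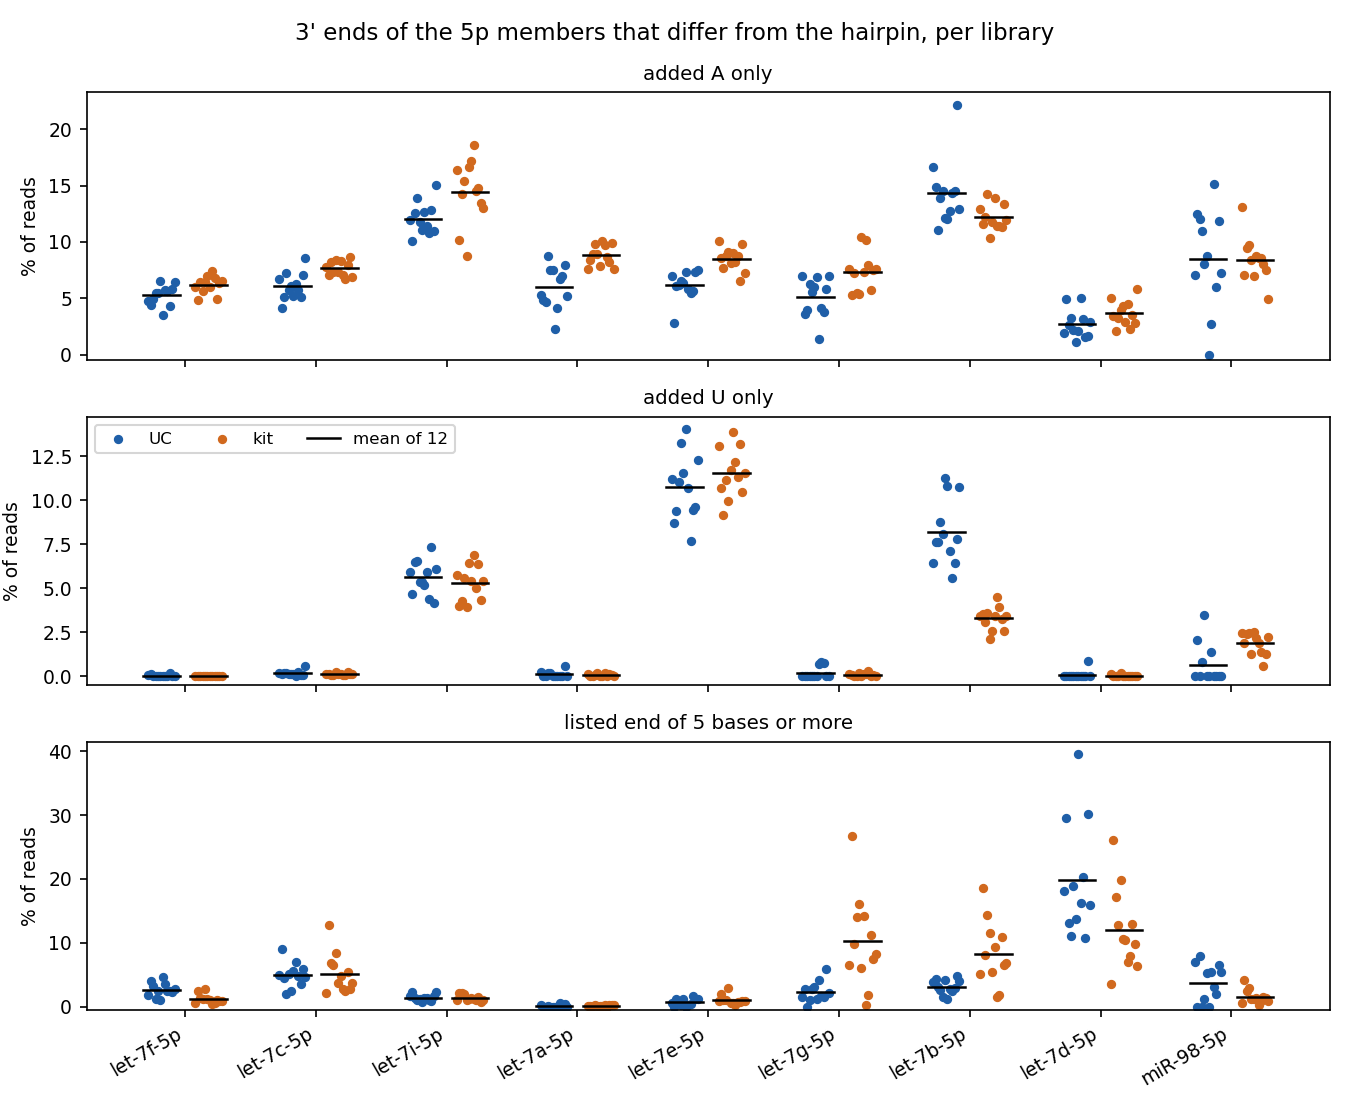
Percent of reads of each 5p member with a listed 3′ end pattern in each library, by method, for added A only, added U only and runs of 5 or more bases. let-7b-5p has 8.19% of reads with added U by UC and 3.29% by the kit, and let-7g-5p has 2.28% and 10.2% of reads with long runs.

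let-7c-2-3p had by far the most modified end of the family. Of its reads, 73.0% to 89.0% carried an addition with UC (mean 79.7% ± 4.74) and 60% to 83.8% with the kit (mean 72.9% ± 7.11). Nearly all were U alone, on 78.7% of 1440 reads with UC and 75.3% of 1776 reads with the kit, summed over libraries. Among miRNAs with at least 50 reads this share ranked 3 of 258 with UC and 4 of 331 with the kit, where the medians were 2.38% and 2.15% over all miRNAs and 5.27% and 4.41% over 3p arms. In each method, 8 of the 3p arms exceeded 50%.

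The modified base was base 22, a C in the hairpin. A read that ends at base 21 and gained a U is listed in the same way as a read with U in place of this C. Other 3p arms of let-7 hairpins are shown beside it because they differ in whether and how often that base was read as U. The first 22 bases follow, with base 22 of the hairpin in capitals.
let-7f-2-3p: cuauacagucuacugucuuucC
let-7c-2-3p: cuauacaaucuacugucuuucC
let-7b-3p: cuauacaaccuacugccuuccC
let-7f-1-3p: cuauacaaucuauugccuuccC
let-7c-1-3p: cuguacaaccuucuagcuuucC
let-7e-3p: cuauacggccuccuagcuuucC
let-7d-3p: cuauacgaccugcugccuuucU
let-7i-3p: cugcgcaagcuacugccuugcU

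U at base 22 was read in 559 of 641 reads of let-7f-2-3p, 84.4% with UC (95% Wilson interval 79.5 to 88.3) and 89.2% with the kit (85.7 to 91.9). It was read in 2455 of 3216 reads of let-7c-2-3p, 78.1% with UC (75.8 to 80.1) and 74.9% with the kit (72.9 to 76.9). let-7b-3p had it in 139 of 188 reads, 60% with UC (42.3 to 75.4) and 76.6% with the kit (69.4 to 82.5), and let-7f-1-3p in 15 of 23. let-7c-1-3p, in contrast, had it in 1 of 34 reads (2.94%, interval 0.521 to 14.9), and let-7e-3p in 2 of 10 and let-7a-2-3p in 1 of 8 reads. The interval of let-7c-1-3p lies below those of let-7f-2-3p, let-7c-2-3p and let-7b-3p, as do those of let-7e-3p (5.67 to 51.0) and let-7a-2-3p (2.24 to 47.1), over both methods. These low arms cannot be ordered among themselves at this depth. The intervals cover counting error only, since reads were not counted by molecule.

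Where the hairpin itself has U at base 22, as in let-7d-3p (1445 reads), let-7i-3p (317 reads) and miR-98-3p (47 reads), an added U after base 21 cannot be told from the hairpin. let-7g-3p starts 1 base earlier, and carried U alone at its end on 4.08% of 147 reads with UC and 19.6% of 112 reads with the kit. The share of let-7c-2-3p reads with U alone varied from 71.3% to 89.0% among UC libraries (median 78.7%) and from 56.7% to 83.1% among kit libraries (median 72.1%), and the methods overlapped.

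**Figure D5:**
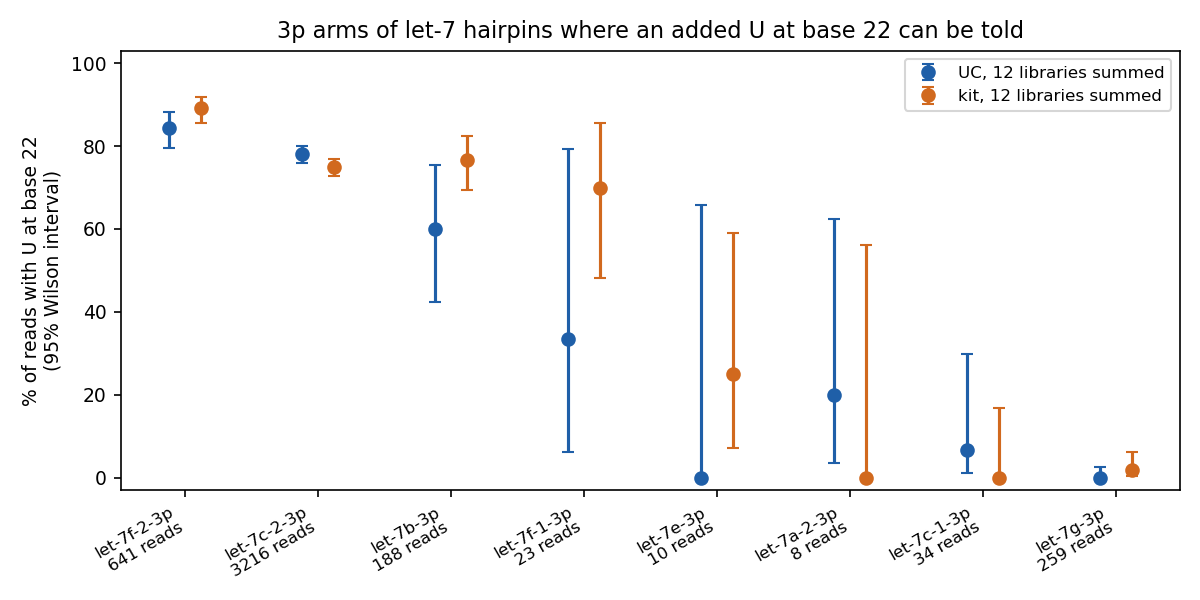
Percent of reads with U at base 22 for the 3p arms of let-7 hairpins that have another base there, by method, with 95% Wilson intervals of the summed reads. let-7f-2-3p (84.4% with UC, 89.2% with the kit) and let-7c-2-3p (78.1% and 74.9%) are high, and let-7c-1-3p with 1 of 34 reads is low. let-7g-3p (0 of 147 reads with UC, 2 of 112 with the kit) starts 1 base earlier. It is plotted at its own base 22, which is not aligned with that of the other arms.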

How the data were processed

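Small RNA of EEFs was sequenced in 24 libraries. According to the labels and the study's methods, the EEFs were exposed to RNase A and made into TruSeq small RNA libraries, whose reads the authors trimmed and assigned to miRBase hairpins with Chimira. The deposited values are raw counts per mature miRNA and library, and counts per modification pattern with position. How reads that match several hairpins were assigned is not given in the sources used here. Both tables had equal totals in 11992 of 11992 pairs of miRNA and library, once the second entries of 11791 reads were left out. These second entries were left out of that check only, and were kept in the shares of read ends and base changes. The members, lists and tests were chosen with earlier results of these data known, and every member is named.

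Tests on counts used edgeR 4.0.16 under R 4.3.3 (TMM, glmQLFit and glmQLFTest, CPM over 1 in at least 6 of the 12 libraries of a method, Benjamini-Hochberg adjustment over all 420 UC, 520 kit or 397 shared miRNAs), on 12 libraries of a method with 1 coefficient per group, or on all 24 for kit against UC. limma-voom (limma 3.58.1) and DESeq2 1.42.0 were alternatives, as were other scalings and filters, a replicate block, and libraries left out. Shares of read ends were tested by exact permutation within strata in Python 3.11.15 with scipy 1.17.1, numpy 2.4.6 and pandas 2.3.3. The scripts were tested on simulated data first. Positions and annotation are those of GRCm38.p6, and sequences those of RefSeq. The main fits did not pair libraries by the replicate numbers in the labels, and a block for the number was run as an alternative only. In 3 of 12 sets of comparisons every same-numbered pair of libraries correlated over 0.1. These correlations were weak (KA against control at 2 weeks with UC, 0.110 to 0.213, and with the kit, 0.179 to 0.302, and 2 weeks against 24 h in UC KA mice, 0.112 to 0.167). The miRNAs named are the members, the other arms and relatives, cluster partners and reference miRNAs, the markers, and the 5 other miRNAs that correlated best with the summed family.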

Additional observations from a re-analysis of the deposited data

How the results depend on the processing

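Of the 10 members called between kit and UC, 7 kept their direction and call in 14 of 14 alternatives, let-7c-5p in 12, let-7b-5p in 10 and let-7i-5p in 8. let-7i-5p turned to -0.17 when miR-92b-3p and miR-25-3p set the scale, and the count was then 8 (63.2% of all). The count was 10 with DESeq2, limma-voom and the replicate block (66.5%, 68.3% and 67% of all miRNAs tested called), 8 without a filter (28.6%), 8 in control libraries only (53.1%), 7 in KA libraries only (48.6%), and 9 without any replicate number (56.7% to 61.2%). The replicate block changed no count of called members for treatment, time or their interactions (0), nor for 3′ additions (3). For 3′ additions the count of called members was 6 for A only and 1 for U only. It was 5 for A after the mature end (23% of all miRNAs called) and 5 for additions of 1 to 3 bases (43.2%), both chosen after seeing the data. It was 2 to 3 with a replicate number left out, and 0 at a minimum of 200 reads (30%). That minimum left 4 members to test. It dropped let-7a-5p, let-7e-5p and let-7g-5p (lowest 132, 178 and 87 reads), the 3 called at the main setting, so this 0 does not test their calls. Differences for U only were -0.0402 (let-7a-5p), -0.0518 (let-7c-5p), -0.110 (let-7g-5p) and -0.343 (let-7i-5p) percentage points, none of them called, while let-7f-5p turned to 0.939 for A only, 0.985 for A after the mature end and 0.835 for 1 to 3 bases, and let-7b-5p to 0.999 for A after the mature end. In reads without a listed modification, let-7b-5p made up 2.28% of the family with the kit and 6.37% with UC, let-7c-2-3p 0.101% and 0.410%, and let-7c-5p 28.6% with UC. By construction, members with many modified reads lose share there. The cause of the other changes was not tested. Depth limits miR-98-5p, let-7d-5p and let-7c-2-3p most, as they had under 50 reads in some UC libraries.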

Other observations

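Within groups, the members did not vary alike. After centring on each of the 8 groups, the log2 CPM of let-7f-5p (Pearson's r 0.97), let-7a-5p (0.97), let-7e-5p (0.95) and let-7c-5p (0.91) followed the summed family closely over 24 libraries, while let-7i-5p (0.61) did so less and let-7c-2-3p hardly at all (-0.09). Each member is part of the sum, let-7f-5p the largest part, so these are descriptions. For let-7i-5p r was 0.90 in UC libraries and 0.34 in kit libraries, and for miR-98-5p 0.94 and 0.36. The 5 miRNAs outside the family with the highest values were miR-26a-5p (0.72), miR-26b-5p (0.71), miR-672-5p (0.67), miR-153-5p (0.62) and miR-3535 (0.58), which share libraries and depth with the family.

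The kit libraries numbered 1 had more let-7f-5p than the others in every group. They lay between 70930 and 83420 CPM and the 8 others between 25646 and 53248 CPM, without overlap. The labels do not say what the number stands for, and the pattern was noticed after the values were seen.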
